A study of Saccharomyces cerevisiae with 18 samples.

Results

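Genes that budding yeast switches on to mate were followed through every library of a study of histone H2A and acute stress. The 10 genes were chosen by name as targets of mating pheromone and by no cut on their values. Earlier results of these data were known when they were chosen, so the set is not independent of the data. The genes are FUS3 (YBL016W), FAR1 (YJL157C), SST2 (YLR452C), AGA1 (YNR044W), FIG1 (YBR040W), PRM1 (YNL279W), FUS2 (YMR232W), PRM3 (YPL192C), KAR5 (YMR065W) and PRM4 (YPL156C). They are 10 of the 6746 features in the count table, and all 10 were among the 6395 genes that passed the filter on low counts.

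Poly(A) RNA of Saccharomyces cerevisiae was counted in 18 libraries, 3 in each of 6 groups, which cross 2 genotypes with 3 conditions. All cells derive from FY406 and are MATa, with LEU2 in place of the chromosomal hta1-htb1 pair, TRP1 in place of hta2-htb2, and the alleles his3delta200, leu2delta1, ura3-52, trp1delta63 and lys2-128delta. They live on plasmid-borne HTA1-HTB1, which encodes unchanged histone H2A in the wild type (WT) and H2A with alanine in place of a serine in S121A. The plasmid marker is written HIS3, HIS4 and HIS5 in the labels of replicates 1, 2 and 3 of each group. Cultures grew to log phase in YPD, a rich glucose medium, at 30 °C and were taken unstressed, after 15 min in 0.4 M NaCl, or after 10 min at 39 °C. The labels name no pheromone treatment, so the values below are levels in cultures of 1 mating type with no partner or pheromone recorded. They say only that the samples are replicates, so the p-values measure the spread between these samples, which may be technical.

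A MATa cell senses alpha-factor with the receptor Ste2, whose G protein frees its beta-gamma subunits to start a kinase cascade of Ste20, Ste11, Ste7 and the MAP kinases Fus3 and Kss1 on the scaffold Ste5. The kinases free the transcription factor Ste12 of its inhibitors Dig1 and Dig2, and Ste12 binds the pheromone response element TGAAACA upstream of mating genes. The products arrest the cell in G1, turn growth toward the partner, glue the cells together, and fuse first the cells and then the nuclei.

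The stretches upstream of 5 of these genes are shown because their RNAs carry the main results. FIG1, PRM1 and PRM3 were higher in S121A in every condition, although for PRM3 in heat that call was not stable. The difference between genotypes changed with both stresses for FAR1, in tests that share the unstressed libraries. For FUS3 the change passed only in heat. Each stretch runs 5′ to 3′ on the strand of its gene, from base 300 to base 101 before the start codon, in the RefSeq sequence of build R64. Capitals mark TGAAACA, read as TGTTTCA on the opposite strand, or its first 6 letters TGAAAC in FIG1 and FAR1, which lack the full element. On the opposite strand those 6 letters read GTTTCA.
FIG1, chrII:316668-316867, plus strand: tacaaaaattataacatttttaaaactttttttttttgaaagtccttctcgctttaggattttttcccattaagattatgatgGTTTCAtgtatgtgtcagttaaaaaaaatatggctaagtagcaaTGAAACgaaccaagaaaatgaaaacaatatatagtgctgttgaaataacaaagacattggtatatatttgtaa
PRM1, chrXIV:110617-110816, plus strand: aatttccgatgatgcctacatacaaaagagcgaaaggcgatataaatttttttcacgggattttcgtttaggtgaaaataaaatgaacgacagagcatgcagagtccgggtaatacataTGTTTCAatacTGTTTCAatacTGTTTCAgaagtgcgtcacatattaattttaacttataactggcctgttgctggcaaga
PRM3, chrXVI:183157-183356, minus strand: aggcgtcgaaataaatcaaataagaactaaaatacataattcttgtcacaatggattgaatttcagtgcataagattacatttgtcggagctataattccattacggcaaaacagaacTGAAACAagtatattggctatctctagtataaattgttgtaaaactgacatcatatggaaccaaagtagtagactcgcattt
FAR1, chrX:126429-126628, minus strand: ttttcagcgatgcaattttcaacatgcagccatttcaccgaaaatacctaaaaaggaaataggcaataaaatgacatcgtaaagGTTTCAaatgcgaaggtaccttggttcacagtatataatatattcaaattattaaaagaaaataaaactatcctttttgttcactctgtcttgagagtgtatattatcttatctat
FUS3, chrII:192151-192350, plus strand: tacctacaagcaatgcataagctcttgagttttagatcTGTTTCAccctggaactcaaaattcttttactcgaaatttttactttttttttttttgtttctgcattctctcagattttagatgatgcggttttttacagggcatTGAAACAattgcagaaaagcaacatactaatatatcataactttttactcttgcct

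Both strands of the 300 bases before each start codon were searched, and 6 of the 10 genes held TGAAACA at least 1 time, against 7.19% of the 6007 windows of the genome. PRM1 held 3 copies, beginning 181, 170 and 159 bases before its start codon, and was the only gene of the 6007 with 3. FUS2 held 2, at 221 and 200 bases, and FUS3 held 2, at 262 and 156 bases, where 0.366% of all windows held at least 2. PRM3, AGA1 and SST2 held 1 copy each, at 182, 202 and 245 bases. FIG1, PRM4, FAR1 and KAR5 held no full copy, though the first 6 letters began 217 and 173 bases before the start codon in FIG1, 268 and 131 in PRM4 and 216 in FAR1. The shorter TGAAAC, which is contained in every copy of the full element, was in 9 of the 10 windows (all except that of KAR5) and in 19.4% of all windows. The stress response element AGGGG, bound by Msn2 and Msn4, was in 1 of the 10 windows, that of FUS2, and in 22.2% of all. This match in FUS2 lay on the opposite strand and began only 9 bases before the start codon. The cell cycle elements ACGCGT and CGCGAAA were in none of the 10, against 3.48% and 3.95% of all windows. These are matches of letters in a window and not measured binding sites. The 10 genes were chosen as targets of pheromone, so a share of TGAAACA above that of all windows was likely beforehand. It is given as a description only. The window of FUS2 reaches 9 bases into the neighbouring gene PEP5, and that of KAR5 reaches 58 bases into AEP1.

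**Figure D1:**
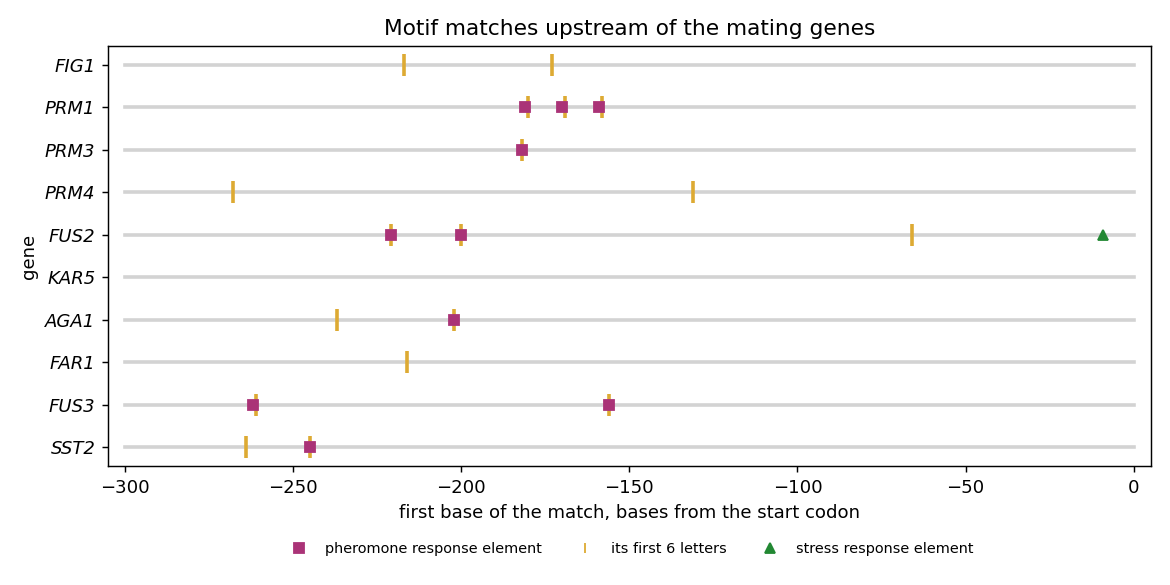
Matches of the pheromone response element TGAAACA (squares), of its first 6 letters (ticks) and of the stress response element AGGGG (triangle) in the window before each start codon. The horizontal axis gives the first base of a match in bases from the start codon and each row is a gene. The 3 copies of PRM1 lie between 181 and 159 bases before the start, and KAR5 has no match.

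Each gene has a single coding segment and no other annotated gene overlaps its coding sequence. In R64 coordinates, FIG1 lies at chrII:316968-317864, FUS3 at chrII:192451-193512, FAR1 at chrX:123836-126328, SST2 at chrXII:1039270-1041366 and FUS2 at chrXIII:736926-738959. KAR5 lies at chrXIII:399702-401216, PRM1 at chrXIV:110917-112902, AGA1 at chrXIV:703699-705876, PRM3 at chrXVI:182655-183056 and PRM4 at chrXVI:255913-256767.

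Libraries held 39.6 to 53.03 M counts (M stands for mega). Levels are CPM, the counts of a gene per M counts of its library, after scaling by the trimmed mean of M values (TMM), and a count of 3 corresponded to 0.0448 to 0.0898 CPM. Such levels are relative to the other mRNAs of a library: fewer cells that express a gene and less of its RNA per cell cannot be told apart. HTA1, the gene that carries the mutation, had a level of 1003 ± 62.2 CPM (SD, n = 3) in WT and 1081 ± 36.7 CPM in S121A without stress, which checks that it was expressed but not which codon it carried. The a-specific genes that define MATa cells were all detected, among them the pheromone gene MFA2 at 813.6 to 919.9 CPM and the agglutinin gene AGA2 at 86.14 to 104.2 CPM in unstressed WT.

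Per kilobase of coding sequence, the 10 genes fell into an abundant and a scarce set in unstressed WT. AGA1 was at 77.9 ± 1.15 CPM per kb (SD, n = 3), FUS3 at 54.7 ± 0.288, FAR1 at 52.7 ± 0.613 and SST2 at 47.2 ± 2.37. The last 3 are regulators of the pathway itself, and each of the 4 stood apart from its neighbour in that order by more than the sum of their SDs. The other 6 genes were all lower per kb, with PRM4 at 8.26 ± 1.01, KAR5 at 7.96 ± 0.861, PRM1 at 5.81 ± 0.255, FIG1 at 3.30 ± 0.168, FUS2 at 1.57 ± 0.236 and PRM3 at 0.808 ± 0.134 CPM per kb. PRM4 and KAR5 did not differ beyond their SDs, while the other neighbours did. In unstressed S121A the same 4 genes led, and FIG1 stood next at 13.4 ± 0.607 CPM per kb, above PRM4 at 10.7 ± 0.182, KAR5 at 10.3 ± 1.09 and PRM1 at 9.65 ± 0.694. SST2, FUS3 and FAR1 there did not differ beyond their SDs. PRM4 and PRM1 did, while KAR5 between them differed from neither.

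**Figure D2:**
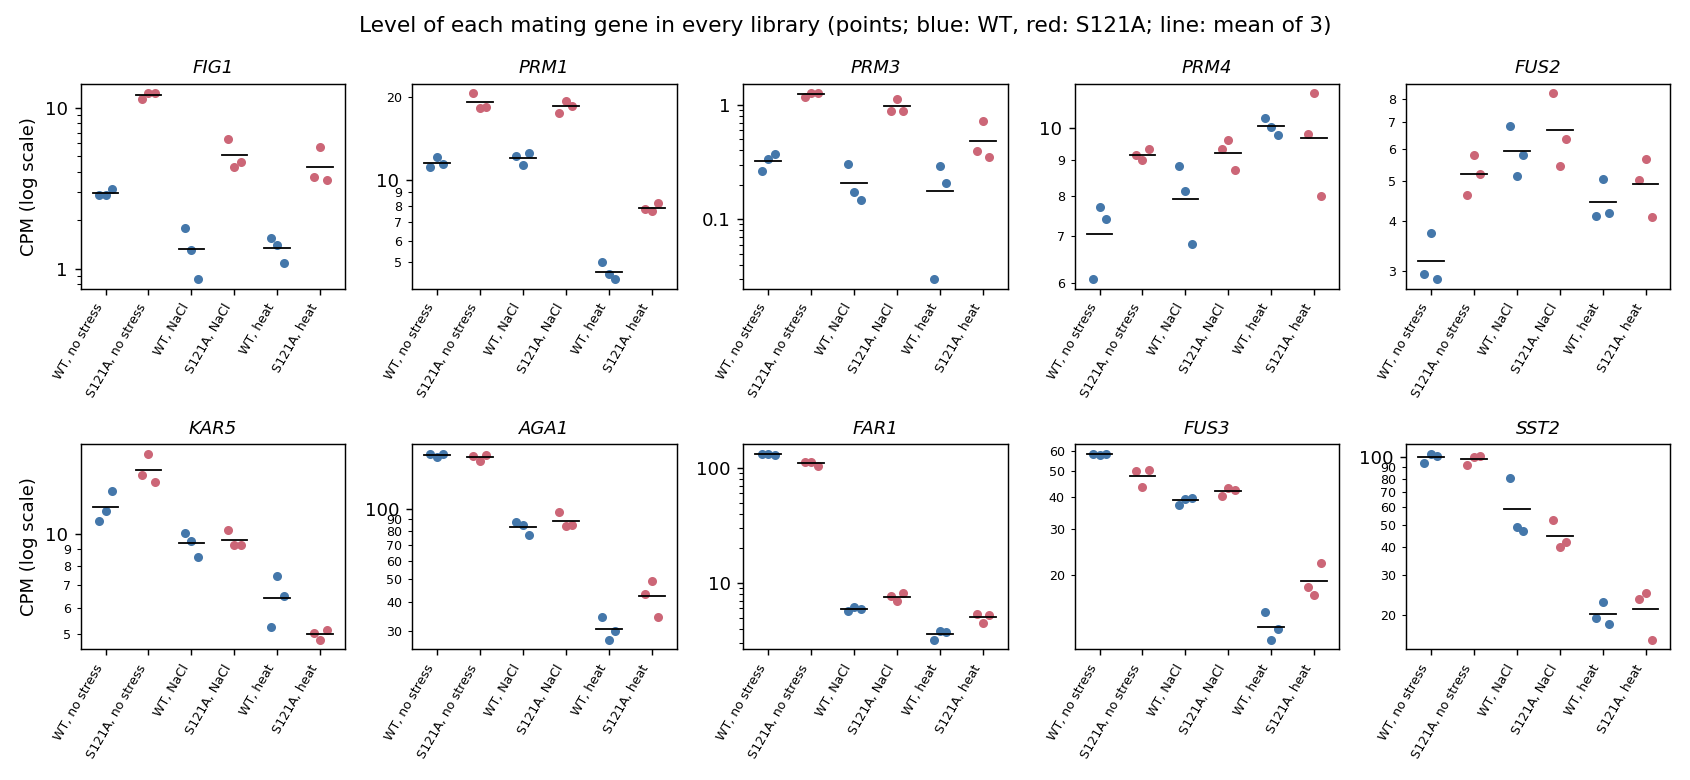
TMM-scaled CPM of each gene in all 18 libraries on log axes that differ between panels; points are libraries (blue for WT, red for S121A) and lines are means of 3. FIG1, PRM1 and PRM3 have all red points above the blue points of the same condition, and FAR1 drops from above 100 CPM in both unstressed groups to between 3.18 and 8.17 CPM under either stress.

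Without stress, S121A cells carried more RNA of FIG1, PRM3, PRM1, FUS2, KAR5 and PRM4 and slightly less of the kinase gene FUS3 and the arrest gene FAR1. FIG1 was 4.05-fold, PRM3 3.79-fold, PRM1 1.66-fold and FUS2 1.64-fold higher, while AGA1 and SST2 were 1.02-fold apart from WT without passing the test. By the quasi-likelihood test of edgeR with Benjamini-Hochberg adjustment over the 6395 genes, at an adjusted p under 0.05, 6 of the 10 genes were higher, where 9.05% of all genes were, and 2 were lower, where 14.1% of all genes were. Their median log2 fold change was 0.37, beside -0.02 over all genes tested. All adjusted p-values below come from this test.

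FIG1 encodes a membrane protein needed for calcium influx and efficient fusion during mating. Its level was 2.86, 2.89 and 3.13 CPM in the 3 unstressed WT libraries and 11.37, 12.33 and 12.3 CPM in the unstressed S121A libraries. The groups were far apart, with a log2 fold change of 2.02 ± 0.20 (SE) and an adjusted p of 9.17e-07. In NaCl it was at 1.79, 1.31 and 0.857 CPM in WT and 6.43, 4.27 and 4.57 CPM in S121A. In heat it was at 1.55, 1.41 and 1.08 CPM in WT and 3.69, 5.66 and 3.54 CPM in S121A. All S121A libraries again lay above all WT libraries of the same condition, by 1.95 ± 0.23 on the log2 scale in NaCl (adjusted p = 2.5e-06) and 1.68 ± 0.23 in heat (adjusted p = 1.51e-05).

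PRM1 encodes a membrane protein that acts as the plasma membranes of mating cells merge. Unstressed WT libraries held 11.13, 12.11 and 11.38 CPM and unstressed S121A libraries 20.75, 18.36 and 18.38 CPM. In NaCl the WT values were 12.27, 11.35 and 12.55 CPM and the S121A values 17.59, 19.47 and 18.65 CPM. In heat they were 5.0, 4.52 and 4.33 CPM in WT and 7.80, 7.70 and 8.23 CPM in S121A. Every S121A library lay above every WT library of its condition, and the log2 fold change kept to a narrow range, at 0.73 ± 0.09 unstressed (adjusted p = 6.69e-06), 0.62 ± 0.09 in NaCl (adjusted p = 2.31e-05) and 0.78 ± 0.10 in heat (adjusted p = 3.56e-06).

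PRM3 encodes a protein of the nuclear envelope that is required for the fusion of nuclei, a step called karyogamy. It was the scarcest of the 10, with 14, 18 and 19 counts in unstressed WT (0.265, 0.340 and 0.370 CPM) and 66, 77 and 85 counts in unstressed S121A (1.16, 1.28 and 1.27 CPM). In NaCl it gave 14, 8 and 7 counts in WT against 42, 50 and 39 in S121A, and in heat 1, 13 and 9 counts in WT against 15, 24 and 13 in S121A. On the CPM scale no S121A library overlapped WT in any condition. The log2 fold change was 1.92 ± 0.33 unstressed (adjusted p = 0.00036), 2.21 ± 0.37 in NaCl (adjusted p = 0.000196) and 1.35 ± 0.44 in heat (adjusted p = 0.0223). The call in heat was lost at an unchanged 1.35 in a fit of the heat libraries alone (adjusted p = 0.103). It was also lost without WT replicate 1, which held 1 count (0.94, adjusted p = 0.0591), without WT replicate 3 (adjusted p = 0.0512) and without S121A replicate 2 (adjusted p = 0.127), against 0.00946 at the lowest over all alternatives.

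FUS2, KAR5 and PRM4 were higher in S121A in unstressed cells and passed in no other condition in that direction. FUS2, which acts in removing the cell wall between partners, held 2.95, 3.73 and 2.86 CPM in the WT libraries and 4.64, 5.81 and 5.21 CPM in the S121A libraries. The groups did not overlap, and the log2 fold change was 0.71 ± 0.17 (adjusted p = 0.00509). KAR5, a nuclear membrane protein of karyogamy, was at 10.96, 11.71 and 13.5 CPM in WT and 15.04, 17.46 and 14.32 CPM in S121A, a difference of 0.37 ± 0.12 (adjusted p = 0.0292). PRM4, named for its regulation by pheromone, was at 6.08, 7.70 and 7.41 CPM in WT and 9.13, 9.01 and 9.32 CPM in S121A, also 0.37 ± 0.12 (adjusted p = 0.0335). These groups did not overlap either, but leaving out single libraries ended the call for KAR5 in 4 of 6 fits and for PRM4 in 5 of 6, with adjusted p up to 0.164 and 0.18.

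FUS3, the mating MAP kinase, held 58.38, 57.77 and 58.05 CPM in the unstressed WT libraries and 50.17, 43.70 and 50.52 CPM in those of S121A. FAR1, which inhibits the G1 cyclin-dependent kinase and orients growth, was at 131.3, 132.9 and 129.9 CPM in WT and 111.9, 113.6 and 104.1 CPM in S121A. Both were lower in every S121A library, by -0.27 ± 0.09 for FUS3 (adjusted p = 0.0407) and -0.26 ± 0.07 for FAR1 (adjusted p = 0.0136) on the log2 scale. These small differences depended on the scaling: with library totals in place of TMM, which moves the median of all genes in this comparison by 0.169, they were -0.10 (adjusted p = 0.331) and -0.09 (adjusted p = 0.459), the highest p over the alternatives, where the lowest were 0.00564 and 0.00133. The call for FUS3 was also lost in each of the 6 fits that left out a library, and that for FAR1 without S121A replicate 3 (adjusted p = 0.072).

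AGA1, the anchor subunit of the a-agglutinin that glues partners together, held 171.6, 166.8 and 170.6 CPM in the unstressed WT libraries and 168.3, 159.6 and 170.1 CPM in those of S121A. SST2, a regulator of G protein signalling that speeds recovery from pheromone, was at 93.41, 102.9 and 100.8 CPM in WT and 91.32, 99.69 and 100.7 CPM in S121A. Both pairs of groups overlapped, with log2 fold changes of -0.03 ± 0.10 (adjusted p = 0.86) and -0.03 ± 0.18 (adjusted p = 0.934).

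**Figure D3:**
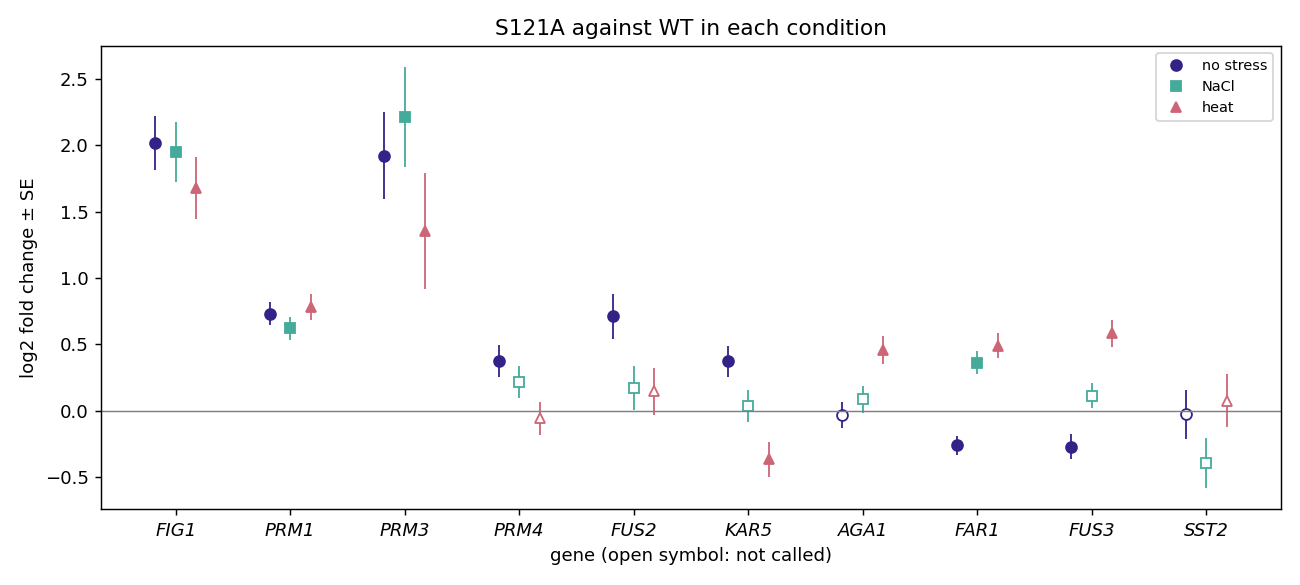
log2 fold change of S121A against WT for each gene unstressed (circles), in NaCl (squares) and in heat (triangles), with SE bars; open symbols did not pass the test. FIG1, PRM1 and PRM3 are filled and above 0 in all 3 conditions, while FAR1 and FUS3 lie below 0 unstressed and above it in heat.

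In NaCl, 4 of the 10 genes were higher in S121A than in WT, where 14.6% of all genes were, and 0 were lower, where 9.19% of all genes were. The count of lower genes was also 0 at an unadjusted p under 0.05 in edgeR and by DESeq2. Beside FIG1, PRM1 and PRM3 the fourth was FAR1, at 5.66, 6.14 and 5.92 CPM in WT and 7.64, 6.98 and 8.17 CPM in S121A. The groups did not overlap and the log2 fold change was 0.36 ± 0.08 (adjusted p = 0.00371). The median over the 10 was 0.20, beside 0.00 over all genes. SST2 was at 80.80, 48.87 and 46.99 CPM in WT and 52.44, 39.74 and 42.16 CPM in S121A, and WT replicate 1 stood apart from the other 2. Its log2 fold change was -0.39 ± 0.19 and did not pass (adjusted p = 0.145), but it passed at -0.36 (adjusted p = 0.0197) in a fit of the NaCl libraries alone with replicate number as a block, a setting added after the data were seen. Over all its alternatives the adjusted p ran from 0.0197 to 0.707. The other 5 genes did not pass, with log2 fold changes between 0.04 ± 0.12 for KAR5 and 0.22 ± 0.12 for PRM4.

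In heat, 6 of the 10 were higher in S121A, where 19.5% of all genes were, and 1 was lower, where 14.2% of all genes were. FUS3 was at 14.46, 11.31 and 12.48 CPM in WT and 18.05, 16.77 and 22.32 CPM in S121A, and FAR1 at 3.18, 3.82 and 3.76 CPM in WT and 5.36, 4.52 and 5.29 CPM in S121A. Neither pair of groups overlapped, and both were higher in S121A, by 0.58 ± 0.10 for FUS3 (adjusted p = 0.000158) and 0.49 ± 0.10 for FAR1 (adjusted p = 0.000528). AGA1 was at 34.61, 27.51 and 30.11 CPM in WT and 43.28, 49.05 and 34.46 CPM in S121A, where the lowest S121A library lay just under the highest WT library, and the difference of 0.46 ± 0.11 passed (adjusted p = 0.00222). KAR5 was the gene that was lower, at 5.24, 7.50 and 6.49 CPM in WT and 5.02, 4.79 and 5.15 CPM in S121A. Its difference of -0.37 ± 0.13 (adjusted p = 0.0391) was lost in 5 of the 6 fits that left out a library, with adjusted p up to 0.225. In a fit of the heat libraries alone KAR5 (adjusted p = 0.166), PRM3 (adjusted p = 0.103) and FAR1 (adjusted p = 0.069) did not pass. FUS2, PRM4 and SST2 had differences between -0.06 ± 0.12 and 0.15 ± 0.17 and did not pass. The median over the 10 was 0.48, beside 0.00 over all genes.

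After either stress these genes were more often lower than higher, and FAR1 was lowered more than any other of the 10. The 2 stress comparisons of a genotype share its unstressed libraries, so their values are set side by side and not counted as separate evidence. In WT in NaCl, 6 of the 10 genes were lower, where 37.2% of all genes were, and 1 was higher, where 36.3% were. In S121A in NaCl, 5 were lower, where 35.3% of all genes were, and 0 were higher, where 35.8% were. In WT in heat, 7 were lower, where 39.3% of all genes were, and 2 were higher, where 40.6% were. In S121A in heat, 8 were lower, where 39.7% of all genes were, and 0 were higher, where 40.3% were. At an unadjusted p under 0.05 in edgeR the first of these counts of 0 becomes 1, which is FUS2, and the second stays 0, and DESeq2 called 0 in both. The medians over the 10 were -0.61 and -0.52 in NaCl and -1.24 and -1.42 in heat for WT and S121A, while those over all genes lay between -0.01 and 0.02. With library totals in place of TMM the median of all genes moves by -0.129 and -0.291 in NaCl and by -0.391 and -0.612 in heat, so the smaller changes depend on the scaling.

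FAR1 fell from the levels above 100 CPM given for unstressed cells to the single digits given for both stresses, with no overlap in either genotype. Its log2 fold change in NaCl was -4.47 ± 0.09 in WT (adjusted p = 7.65e-20), which is 22.2-fold lower, and -3.85 ± 0.08 in S121A (adjusted p = 4.74e-19), 14.5-fold lower. In heat it was -5.19 ± 0.09 in WT (adjusted p = 1.33e-20), 36.4-fold lower, and -4.44 ± 0.09 in S121A (adjusted p = 1.02e-19), 21.7-fold lower. FAR1 RNA is known to vary through the cell cycle as well as with pheromone. The cell cycle lists below moved in the same comparisons, and a link was not tested.

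FUS3 was at 37.10, 39.29 and 39.63 CPM in WT and 40.35, 42.99 and 42.28 CPM in S121A after NaCl, below every unstressed library of its genotype. It fell in WT by 0.59 ± 0.09 on the log2 scale in NaCl (adjusted p = 1.13e-05) and by 2.19 ± 0.10 in heat (adjusted p = 2.97e-14). In S121A the change was -0.20 ± 0.09 in NaCl, which did not pass (adjusted p = 0.061, but 1.24e-05 with library totals, 0.00762 with only the compared libraries and 0.0284 without unstressed replicate 2), and -1.34 ± 0.10 in heat (adjusted p = 7.68e-11). KSS1, the MAP kinase paralog that can stand in for FUS3, fell by 1.76 ± 0.11 in WT and 1.69 ± 0.11 in S121A in heat and differed between the genotypes by -0.07 ± 0.10 unstressed and 0.00 ± 0.11 in heat (adjusted p = 0.688 and 0.981).

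SST2 in heat was at 19.38, 22.94 and 18.37 CPM in WT and 23.58, 25.01 and 15.52 CPM in S121A, below all unstressed and all NaCl libraries. Its log2 fold change was -0.75 ± 0.19 in WT (adjusted p = 0.00168) and -1.12 ± 0.19 in S121A (adjusted p = 4.71e-05) in NaCl, and -2.29 ± 0.20 (adjusted p = 9.18e-09) and -2.19 ± 0.20 (adjusted p = 1.74e-08) in heat. AGA1 after NaCl was at 88.08, 85.21 and 77.39 CPM in WT and 96.63, 84.69 and 85.18 CPM in S121A, between its unstressed and its heat values with no overlap. It fell by 1.02 ± 0.10 in WT (adjusted p = 1.64e-08) and 0.90 ± 0.10 in S121A (adjusted p = 1.13e-07) in NaCl, and by 2.47 ± 0.11 (adjusted p = 1.43e-14) and 1.97 ± 0.11 (adjusted p = 5e-13) in heat.

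FIG1 fell under both stresses, with log2 fold changes of -1.17 ± 0.23 in WT (adjusted p = 0.00013) and -1.24 ± 0.20 in S121A (adjusted p = 1.09e-05) in NaCl and -1.15 ± 0.23 (adjusted p = 0.000163) and -1.49 ± 0.20 (adjusted p = 1.05e-06) in heat. PRM1 did not pass in NaCl, at 0.06 ± 0.09 in WT (adjusted p = 0.528) and -0.05 ± 0.09 in S121A (adjusted p = 0.646, but 0.000961 at -0.34 with library totals), and fell in heat by 1.32 ± 0.09 (adjusted p = 4.78e-11) and 1.28 ± 0.09 (adjusted p = 4.54e-11). Both encode membrane proteins of cell fusion and both were higher in S121A in all conditions. PRM3 passed in 1 of the 4 comparisons, heat in S121A, at -1.35 ± 0.33 (adjusted p = 0.000918), and its counts in stressed WT were 14 or fewer. In heat in WT it was at -0.79 ± 0.44 (adjusted p = 0.109), but passed with library totals (-1.16, adjusted p = 0.0285) and without WT heat replicate 2 (-1.33, adjusted p = 0.0283).

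KAR5 was at 10.08, 9.53 and 8.51 CPM in WT and 10.27, 9.29 and 9.29 CPM in S121A after NaCl. It fell in NaCl by 0.36 ± 0.12 in WT (adjusted p = 0.0111), a call lost without WT unstressed replicate 3 or WT NaCl replicate 3, and by 0.70 ± 0.12 in S121A (adjusted p = 3.14e-05). In heat it fell by 0.91 ± 0.12 in WT (adjusted p = 1.32e-06) and 1.64 ± 0.13 in S121A (adjusted p = 2.39e-10). FUS2 went the other way in WT: it was at 6.85, 5.16 and 5.81 CPM after NaCl and at 4.11, 5.07 and 4.17 CPM after heat, above its 2.86 to 3.73 CPM in unstressed WT. It rose by 0.90 ± 0.17 in NaCl (adjusted p = 8.75e-05) and by 0.48 ± 0.17 in heat (adjusted p = 0.0157), where the call was lost with library totals and without WT unstressed replicate 1 or 3 or WT heat replicate 2. PRM4 rose in WT in heat, from the values above to 10.33, 10.02 and 9.77 CPM, by 0.51 ± 0.12 (adjusted p = 0.000961), a call lost with library totals (0.11, adjusted p = 0.474). In S121A neither FUS2 nor PRM4 passed under either stress, except that with library totals both were lower in heat, by -0.69 (adjusted p = 0.00363) and -0.53 (adjusted p = 0.00221), and that FUS2 passed in NaCl without S121A replicate 2 of either condition.

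**Figure D4:**
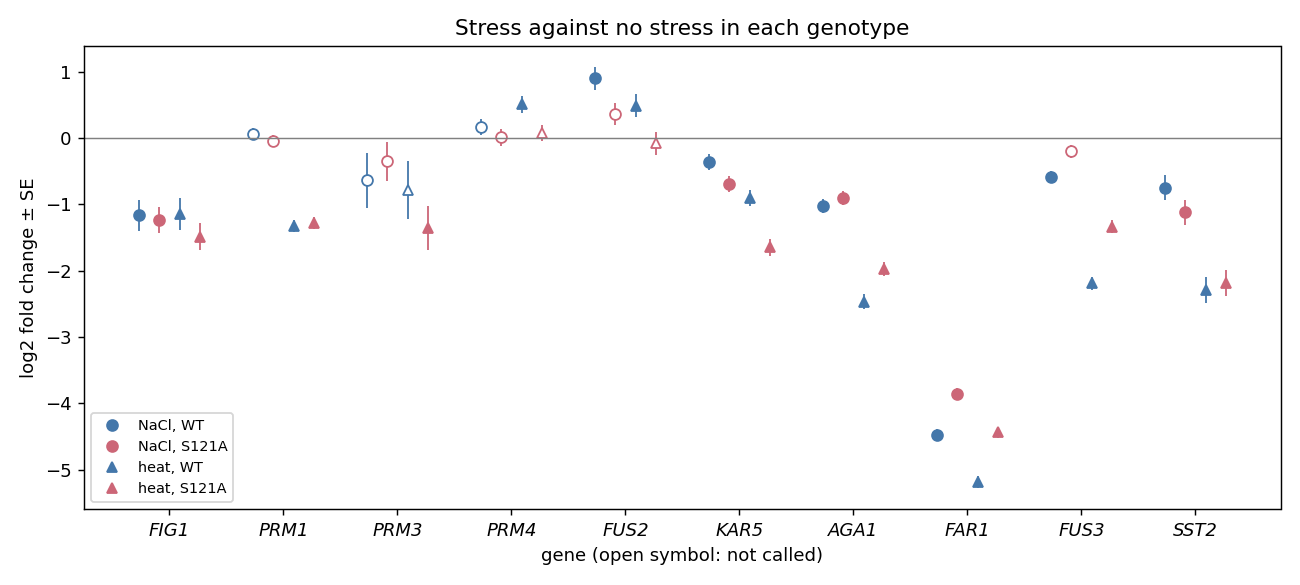
log2 fold change of each gene in NaCl (circles) and heat (triangles) against no stress, in WT (blue) and S121A (red), with SE bars; open symbols did not pass the test. FAR1 has the lowest points, between -5.19 and -3.85, and FUS2 and PRM4 have the only filled points above 0, all of them in WT.

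Heat set directly against NaCl gave 7 of the 10 genes lower in WT, where 33.2% of all genes were lower, and 1 higher, where 32.9% were higher. In S121A 8 were lower in heat than in NaCl, where 33.6% of all genes were lower, and 0 were higher, where 30.6% were higher (0 also at an unadjusted p under 0.05 in edgeR and by DESeq2). AGA1, FUS3, SST2 and PRM1 differed by 1.07 or more on the log2 scale in both genotypes, for example FUS3 by -1.60 ± 0.10 in WT (adjusted p = 1.83e-11) and -1.14 ± 0.10 in S121A (adjusted p = 3.53e-09). FIG1 did not pass in either, at 0.02 ± 0.25 in WT and -0.25 ± 0.21 in S121A (adjusted p = 0.95 and 0.299), but passed in S121A with library totals (-0.57, adjusted p = 0.0331) and without S121A heat replicate 2 (-0.50, adjusted p = 0.0449). PRM4 was the gene higher in heat in WT, by 0.34 ± 0.12 (adjusted p = 0.0209), a call lost with library totals (0.08, adjusted p = 0.639), with only the compared libraries (adjusted p = 0.0636) and without WT NaCl replicate 3 (0.24, adjusted p = 0.118). The lower calls of 2 scarce genes were not stable either. FUS2 was at -0.44 ± 0.17 in S121A (adjusted p = 0.0283) and lost the call with only the compared libraries (adjusted p = 0.0682) and without S121A NaCl replicate 1 (-0.26, adjusted p = 0.203), S121A heat replicate 1 (adjusted p = 0.0545) or S121A heat replicate 3 (adjusted p = 0.13). In WT FUS2 was at -0.41 ± 0.17 (adjusted p = 0.0381) and lost it without replicate 1 or 3 of either stress, with adjusted p from 0.0602 to 0.165. PRM3 in S121A, at -1.01 ± 0.34 (adjusted p = 0.0151), lost it without NaCl replicate 2 (adjusted p = 0.0565), heat replicate 1 (adjusted p = 0.0649) or heat replicate 3 (adjusted p = 0.0661).

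Whether the 2 genotypes responded differently was tested as the S121A response minus the WT response. The tests for NaCl and for heat share the unstressed libraries of both genotypes, so they are not counted as separate evidence. For NaCl, 1 of the 10 genes had a higher response in S121A, where 6.82% of all genes did, and 0 had a lower one, where 1.53% did (1, FUS2, at an unadjusted p under 0.05 in edgeR, and 0 by DESeq2). That gene was FAR1, which fell less in S121A by 0.62 ± 0.11 on the log2 scale (adjusted p = 0.000936). FUS3, at 0.39 ± 0.13 (adjusted p = 0.0808), passed with only the compared libraries (0.33, adjusted p = 0.0424). For heat, 3 had a higher response, where 15.5% of all genes did, and 1 a lower one, where 7.08% did. FUS3 fell less in S121A by 0.85 ± 0.14 (adjusted p = 0.000149), FAR1 by 0.75 ± 0.12 (adjusted p = 0.000142) and AGA1 by 0.49 ± 0.15 (adjusted p = 0.0206). KAR5 fell further in S121A, with a difference of -0.74 ± 0.18 (adjusted p = 0.00554). These tests hold the unstressed difference too: FAR1 and FUS3 were lower in S121A unstressed and higher in heat, and KAR5 was higher unstressed and lower in heat. Not all of these calls were stable. The unstressed calls of FAR1 and FUS3 were lost with library totals (adjusted p = 0.459 and 0.331). Leaving out a library ended that of FUS3 in 6 of 6 fits, and those of KAR5 in 4 of 6 unstressed and 5 of 6 in heat. For FUS2 and PRM4, which passed between the genotypes unstressed but not under stress, the response differences did not pass, at -0.54 ± 0.24 and -0.16 ± 0.17 for NaCl and -0.57 ± 0.24 and -0.43 ± 0.17 for heat. In heat both passed with library totals, FUS2 at -0.79 (adjusted p = 0.0466) and PRM4 at -0.64 (adjusted p = 0.0266), and PRM4 passed without S121A heat replicate 2 (-0.55, adjusted p = 0.0299). The response differences of FIG1, PRM1 and PRM3, which were higher in S121A throughout, did not pass for NaCl (-0.07 ± 0.31, -0.11 ± 0.12 and 0.29 ± 0.51) or for heat (-0.34 ± 0.31, 0.05 ± 0.13 and -0.57 ± 0.57). The call for AGA1 was lost with library totals (0.28, adjusted p = 0.189) and without S121A unstressed replicate 2, WT heat replicate 2 or S121A heat replicate 2, with adjusted p from 0.00124 to 0.189 over its alternatives.

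Other genes of the pathway were set beside these 10 as a description. Of 17 genes of pheromone signalling, 1 was higher and 3 were lower in unstressed S121A, with a median of -0.09, where 9.05% of all genes were higher and 14.1% lower, so the counts are near the background. The receptor STE2 was at -0.38 ± 0.12 (adjusted p = 0.0245), the transcription factor STE12 at -0.27 ± 0.09 (adjusted p = 0.0326) and the small GTPase gene CDC42 at -0.23 ± 0.08 (adjusted p = 0.0336), and the higher gene was STE50, an adaptor of the kinase Ste11, at 0.79 ± 0.14 (adjusted p = 0.000389). In NaCl 2 were higher and 1 lower, with STE20 at 0.30 ± 0.07 (adjusted p = 0.00446), and in heat 2 were higher and 1 lower. Over all genes, 14.6% were higher and 9.19% lower in NaCl, and 19.5% and 14.2% in heat, so these counts are not above the background. Without stress STE12 stood at 73.5 ± 3.53 CPM (SD, n = 3) in WT and 61.0 ± 0.549 CPM in S121A, but 7.82 ± 1.32 and 11.8 ± 0.953 CPM in heat. In heat it was therefore higher in S121A, by 0.60 ± 0.10 (adjusted p = 0.000118), after falling by 3.23 ± 0.10 in WT and 2.36 ± 0.10 in S121A, and the response difference of 0.87 ± 0.13 passed (adjusted p = 9.9e-05). STE12 and STE20 are on chromosome VIII, whose genes were slightly higher in S121A as a whole. Over its 233 genes with at least 8 CPM the median was 0.07 unstressed, 0.09 in NaCl and 0.17 in heat. Over the other chromosomes it was -0.06, -0.03 and -0.03. Of the 10 genes, FUS3, FAR1, AGA1, FIG1, PRM1 and PRM3 were also higher in S121A in heat. KAR5 was lower there, and FUS2, PRM4 and SST2 did not pass. Unstressed, where STE12 was lower, FIG1, PRM1, PRM3, FUS2, KAR5 and PRM4 were higher in S121A. FUS3 and FAR1 were lower unstressed, and AGA1 and SST2 did not pass. A link between the level of STE12 and these genes was not tested.

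Of 16 other genes of mating and fusion, 7 were higher in unstressed S121A, where 9.05% of all genes were, and 3 lower, where 14.1% were, with a median of 0.20. FIG2, an adhesin of mating cells, was at 0.88 ± 0.08, KAR4, a transcription factor of karyogamy genes, at 0.75 ± 0.09, FUS1, a membrane protein of cell fusion, at 0.74 ± 0.08 and RVS161, a membrane-shaping protein that acts with Fus2, at 0.74 ± 0.09. All 4 are on chromosome III, as is STE50, and genes of chromosome III as a whole were higher in S121A: over its 135 genes with at least 8 CPM the median log2 fold change was 0.58 unstressed, 0.61 in NaCl and 0.68 in heat, beside -0.06, -0.03 and -0.03 over the other chromosomes. None of the 10 genes is on chromosome III, and the chromosomes that hold them had medians between -0.09 and 0.03 in the 3 conditions. Without the chromosome III genes, 3 of 12 other mating genes were higher and 3 lower unstressed (median -0.16), 3 and 2 in NaCl (median -0.01), and 1 and 4 in heat (median -0.12). Over all genes, 14.6% were higher and 9.19% lower in NaCl, and 19.5% and 14.2% in heat. PRM2, PRM6 and PRM9 lie outside the rule for naming genes and were picked out after their values were seen. PRM2, at 1.95 and 4.07 CPM in unstressed WT and S121A, was higher by 1.06 ± 0.18 (adjusted p = 0.000326), and PRM6, at 0.967 and 2.40 CPM, by 1.31 ± 0.21 (adjusted p = 0.000201). PRM9 was lower in all 3 conditions, by -0.44 ± 0.10, -0.57 ± 0.10 and -0.48 ± 0.10.

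**Figure D5:**
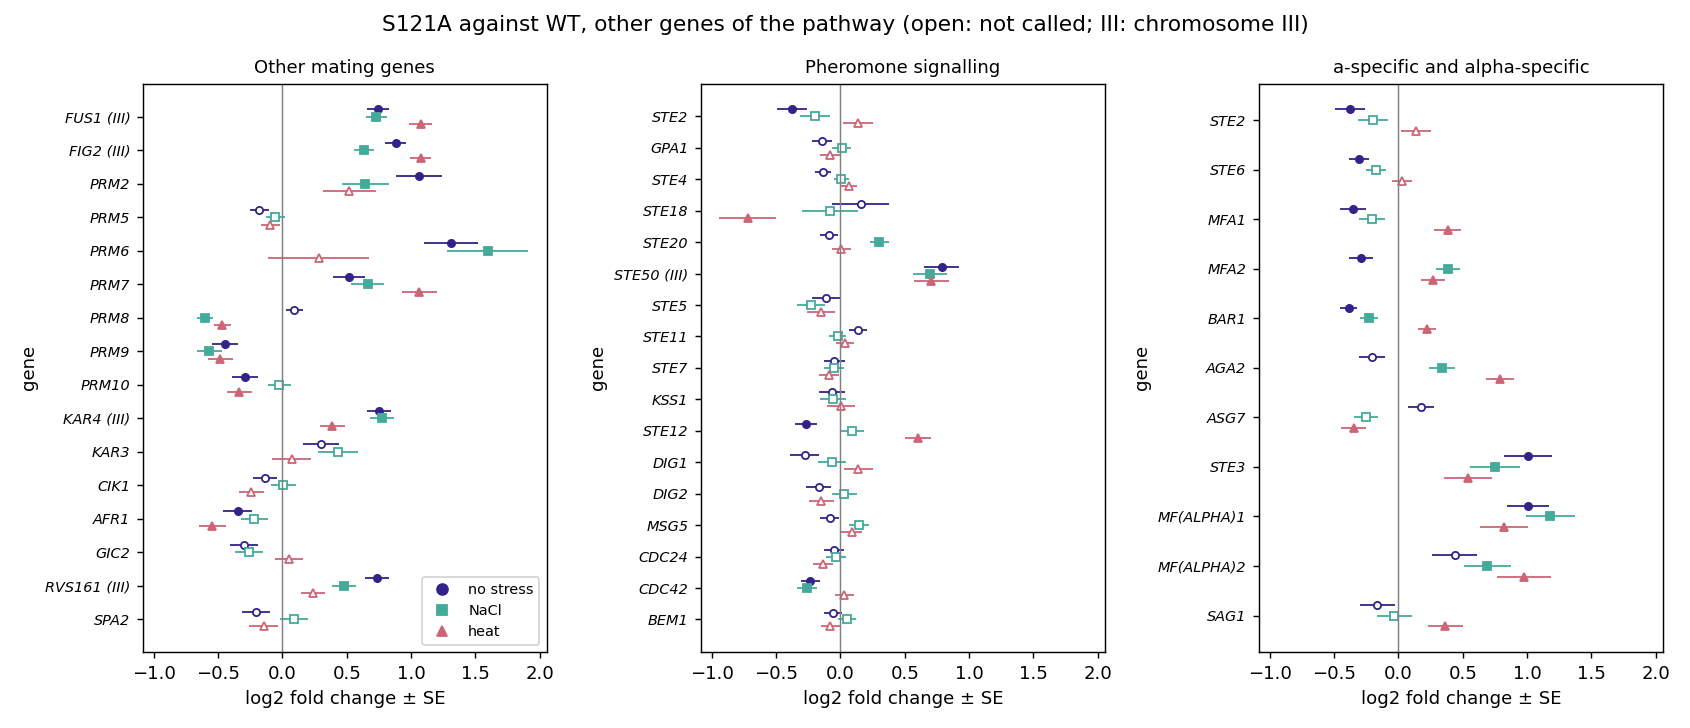
log2 fold change of S121A against WT, with SE bars, for other mating genes, pheromone signalling genes and genes specific to mating type a or alpha, unstressed (circles), in NaCl (squares) and in heat (triangles); open symbols did not pass the test and III marks chromosome III. The chromosome III genes FUS1, FIG2, KAR4 and STE50 are above 0 in every condition, while STE12 and the a-specific MFA1, MFA2 and BAR1 are below 0 unstressed and above it in heat.

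Genes that mark mating type and cell cycle phase moved in the same comparisons, and their part in the results was not tested. Over all genes tested, 9.05% were higher in S121A and 14.1% lower unstressed, 14.6% and 9.19% in NaCl, and 19.5% and 14.2% in heat. Of 7 a-specific genes, 5 were lower in unstressed S121A (median -0.31). In NaCl 2 were higher and 1 lower (median -0.20), and in heat 4 were higher and 1 lower (median 0.23), where the counts of 1 are near the background. None of the 7 was at 0. Their summed level was 2853 to 2936 CPM in unstressed WT, 2211 to 2389 in unstressed S121A, 1196 to 1326 and 1151 to 1215 in NaCl, and 476.5 to 550.4 and 551.9 to 597.6 in heat. Of 4 alpha-specific genes, which MATa cells normally keep at low levels, 2 were higher in S121A unstressed, 3 in NaCl and 4 in heat. STE3, the receptor for a-factor, had 4.49 ± 0.437 CPM in WT and 9.02 ± 0.732 CPM in S121A without stress, and MF(ALPHA)1, an alpha-factor gene, at 1.14 ± 0.209 and 2.29 ± 0.170 CPM. The summed level of the 4 without stress was 94.23 to 98.96 CPM in WT and 89.73 to 101.1 CPM in S121A, most of it SAG1, and none was at 0. Of the diploid and meiosis markers, IME4 was higher in S121A unstressed, at 1.05 ± 0.163 against 0.330 ± 0.113 CPM, RME1 was lower at 41.1 ± 1.03 against 49.8 ± 1.38 CPM, and IME1 did not pass.

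Genes of G1 and of G2/M fell under either stress against no stress, as FAR1 did, while those of M/G1 went both ways. FAR1 was also lower in heat than in NaCl, by -0.71 in WT and -0.58 in S121A. There the medians of the G1 genes were -0.73 and -0.41, but those of the G2/M genes were 0.29 and 0.01. All 6 G1 genes fell in NaCl and in heat in both genotypes, with medians of -2.02 and -1.97 in NaCl and -3.03 and -2.45 in heat for WT and S121A, among them the G1 cyclin gene CLN2 at -2.23 ± 0.10 in WT in NaCl and -4.04 ± 0.11 in WT in heat. All 6 G2/M genes fell in the same 4 comparisons, with medians between -1.31 and -1.06. In these comparisons 35.3% to 39.7% of all genes were lower. The 6 G1 genes summed to 755.1 to 802.7 CPM in WT and 609.8 to 653.5 CPM in S121A without stress, against 60.2 to 62.53 and 78.69 to 86.09 CPM in heat. Between the genotypes, 2 of the 6 G1 genes were lower in S121A unstressed, where 14.1% of all genes were, and 2 in NaCl, where 9.19% were. In heat 3 were higher, where 19.5% of all genes were. Of 7 M/G1 genes, expressed in the phase around which FAR1 transcription is known to peak, 2 were lower in unstressed S121A, 1 in NaCl and 7 in heat. Their median in heat was -0.47. Over all genes, 14.1%, 9.19% and 14.2% were lower in these comparisons. Whether cell cycle phase has a part in the values of FAR1 was not tested. Under stress 2 of the 7 were higher and 5 lower in NaCl in both genotypes, 2 higher and 4 lower in heat in WT, and 1 higher and 5 lower in heat in S121A, with the kinase inhibitor gene SIC1 up by 1.05 ± 0.11 in WT in heat. Over all genes, 35.8% to 36.3% were higher and 35.3% to 37.2% lower in NaCl. In heat these shares were 40.3% to 40.6% and 39.3% to 39.7%, so the counts of higher genes are not above the background.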

How the data were processed

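The authors deposited raw counts for each gene and library, with no normalization. Per the submitters' processing notes, the tools were TopHat2 2.0.1, DESeq2 1.10.1 and featureCounts 1.4.6-p5, and the builds sacCer3 and R64. Per the labels' protocols, hot-phenol RNA was made into stranded poly(A) libraries and sequenced as paired ends. Settings for strand and for multiply mapped reads are not given in the sources. The 10 genes, the pathway lists and the tests were chosen with earlier results of these data known.

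In edgeR 4.0.16 (R 4.3.3), filterByExpr kept 6395 genes, leaving out 0.00142% of the counts, and TMM factors scaled the libraries. Comparisons were two-sided contrasts of group means in a robust quasi-likelihood fit of all 18 libraries, with Benjamini-Hochberg adjustment over all 6395 genes and calls at an adjusted p under 0.05. The SE of a log2 fold change uses the spread of all groups together. Levels are in CPM, with SD over 3 libraries. The model was tested on simulated counts first. DESeq2 1.42.0, other scalings and filters, single comparisons fitted alone, a replicate block and leaving out each library were the alternatives.

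Beside the 10 genes, the text names per comparison at most the 4 called genes of each list with the largest change and a mean of at least 10 CPM in the higher group, and also mating type markers, KSS1, STE12 and HTA1. Libraries held 39.6 to 53.03 M counts (mega), and 3 counts correspond to at most 0.0898 CPM; counts do not show PCR duplicates, so this floor covers counting error only. Replicate libraries of a group differed by more than sampling noise, with a chi-square per degree of freedom of 8.515 to 120.6. Replicate numbers shared deviations only between the NaCl groups (correlations 0.422, 0.205 and 0.396 for numbers 1, 2 and 3), where the pairing comes from the data and not from the labels. Upstream windows were read from the R64 reference sequence with Python 3.11.15, and 6025 features matched its annotation.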

Additional observations from a re-analysis of the deposited data

Results flagged for a closer look

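These results concern responses to stress that differed between the genotypes by a test of the difference itself, the S121A response minus the WT response on the log2 scale in the edgeR model. In NaCl, FAR1 had a difference of 0.62 and the kinase gene STE20 one of 0.39. In heat, FUS3 had 0.85, FAR1 0.75, AGA1 0.49 and KAR5 -0.74 among the 10 genes. Of the other signalling genes, STE12 had 0.87 and the receptor gene STE2 0.52 in heat. A positive value means a smaller fall or a larger rise in S121A. All 8 have adjusted p under 0.05 over the 6395 genes. Of all genes, 6.82% passed upwards in NaCl, and 15.5% passed upwards and 7.08% downwards in heat. Of the 17 signalling genes, 1 passed upwards in NaCl and 2 in heat, which is not above these shares. The call for AGA1 was lost with library totals (adjusted p = 0.189) and in 3 of the 12 fits that left out a library. The cause of these differences was not tested.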

How the results depend on the processing

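Over all alternatives, 1339 log2 fold changes of the 10 genes were recomputed: 1268 stayed on their side of the threshold, 54 lost a call, 16 gained 1 and 1 reversed. The sign differed in 37, of which 36, counted in the 1268, were called under neither setting. FIG1 and PRM1 stayed higher in S121A in all 3 conditions under every alternative run. With library totals, PRM4 in S121A in heat against no stress reversed from 0.08 to -0.53 (adjusted p = 0.00221). With library totals, 0 genes were lower in unstressed S121A (2 in the model reported), 0 were higher in heat in WT (2), 0 were higher in heat against NaCl in WT (1) and 3 had a lower heat response in S121A (1). With only the libraries compared, all genes called between the genotypes numbered 2543 unstressed (1480) and 1218 in heat (2156), and of the 10 genes 0 were lower in heat in S121A (1), 0 were higher in heat against NaCl in WT (1) and 2 had a higher NaCl response (1). The NaCl libraries alone with a replicate block, added after seeing the data, gave 1 lower gene (0). The cause was not tested.

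Leaving out each library gave 869 to 1154 genes called between the genotypes unstressed (1480) and 934 to 2340 for the heat response difference (1445). Of the 10 genes it gave 0 to 1 lower in unstressed S121A, 1 to 2 higher in heat in WT, 0 to 1 higher in heat against NaCl in WT, 1 to 2 with a lower heat response, 0 to 1 lower in S121A in heat and 0 to 1 higher in NaCl in S121A.

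The replicate block over all libraries changed no call of the 10 genes; all genes called numbered 1519 unstressed, 1586 in NaCl and 2197 in heat. Outside the NaCl genotype comparison, at least 1 of the 3 correlations between same-numbered libraries was at or under 0.1, between -0.576 and 0.608. Low counts limit PRM3, and 3 libraries a group limit every small difference.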

Other observations

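Of 16 other mating genes, 6 rose and 6 fell in NaCl in WT, where 36.3% of all genes were higher and 37.2% lower, and 6 rose and 9 fell in heat, where 40.6% were higher and 39.3% lower. The counts in NaCl are near the background, and single genes moved far. PRM10 rose by a log2 fold change of 5.56 ± 0.11 in WT and 5.83 ± 0.12 in S121A in NaCl (adjusted p = 1.69e-19 and 1.68e-19). PRM8 rose by 2.85 ± 0.07, AFR1, which acts in the shape of the mating projection, by 2.32 ± 0.11, and PRM9 by 1.91 ± 0.10 in WT in NaCl. In heat, AFR1 rose by 2.45 ± 0.11, PRM8 by 2.10 ± 0.07 and PRM10 by 1.63 ± 0.10 in WT, while PRM7 fell by 1.78 ± 0.13. The summed level of the 16 was 589.8 to 626.9 CPM in unstressed WT and 1291 to 1319 CPM in WT in NaCl, where that of the 10 mating genes went from 488.9 to 498.8 CPM down to 204.6 to 251.8 CPM. Such sums weigh abundant genes most, among them FAR1 and AGA1, which fell. Of the 10 genes, 6 were lower and 1 was higher in that comparison.

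Of the 17 signalling genes, 6 were higher and 8 lower in NaCl in WT and 7 higher and 8 lower in heat, also near the shares over all genes. STE2 fell by 1.25 ± 0.12 in NaCl and 2.88 ± 0.13 in heat, and the G protein genes STE4 and GPA1 fell by 1.97 ± 0.06 and 1.77 ± 0.08 in heat. STE50 rose in NaCl, by 0.84 ± 0.14.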
